A study of Mus musculus with 194 samples.

Results

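Transposon insertions were compared between the cortex of 6 Syn1Cre and 6 Syn1CreNeg mice, which make up 12 of the 47 deposited tables of a calling card series. The tables were chosen by their labels: replicates 1 to 6 named Syn1Cre, a line in which Cre recombinase is driven by the promoter of the neuronal gene synapsin 1, and replicates 1 to 6 named Syn1CreNeg, the counterpart without Cre. Both groups received an adeno-associated virus on postnatal day 0 or 1, and cortex RNA was used for self-reporting transposon libraries. The labels give neither the virus, the transposase, the age at collection nor the sex for these animals, and each numbered replicate was taken as 1 animal. Replicates 1 to 3 and replicates 4 to 6 of both groups carry labels of different layout, here called the earlier and the later layout. Layout entered each test between these groups as a block. The p-values measure the spread between these tables.

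A self-reporting transposon is a DNA segment that a transposase pastes into the genome and that is then transcribed together with the flanking DNA, so that its position can be read from RNA. Transposons of the piggyBac type insert at the bases TTAA and are known to land often in open, active chromatin such as enhancers and promoters, so that the insertions of a cell reflect which regulatory regions are in use there. Cortical GABAergic interneurons, excitatory projection neurons and astrocytes differ in these regions: DLX, LHX and SP transcription factors set up the interneuron program, whereas SOX and NFI factors, glutamate transporters and inwardly rectifying potassium channels mark astroglia. The cortex was processed whole, with all its cell types together. A difference at a locus can come from more cells of a type carrying insertions or from more insertions per cell. Locus values are relative to all insertions of an animal, and rose and fell refer to this relative value. A locus can thus also fall because insertions were added elsewhere. These cannot be told apart.

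The target of the transposon is visible in the promoters of genes with large differences. The 4 sequences below are the promoter windows with the most insertions among those available for 24 loci. These loci are the 12 highest and 12 lowest fold changes that passed the test among loci with at least the median normalised count. Loci without an available window, such as Grik1 and Sall3, could not be ranked. For each direction 2 windows are shown, chosen after the values were seen. Each runs from 250 bases before to 50 bases after an annotated start (RefSeq, GRCm38.p6) and is written 5′ to 3′ on the strand of the gene, with TTAA in capitals.
Kcnmb2, chr3:31902453-31902752, + strand: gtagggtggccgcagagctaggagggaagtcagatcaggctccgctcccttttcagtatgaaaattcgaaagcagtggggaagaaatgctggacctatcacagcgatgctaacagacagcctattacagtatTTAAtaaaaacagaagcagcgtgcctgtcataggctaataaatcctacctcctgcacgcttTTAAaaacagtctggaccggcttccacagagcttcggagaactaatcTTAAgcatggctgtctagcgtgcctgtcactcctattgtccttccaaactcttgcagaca
Kcnc2, chr10:112269767-112270066, + strand: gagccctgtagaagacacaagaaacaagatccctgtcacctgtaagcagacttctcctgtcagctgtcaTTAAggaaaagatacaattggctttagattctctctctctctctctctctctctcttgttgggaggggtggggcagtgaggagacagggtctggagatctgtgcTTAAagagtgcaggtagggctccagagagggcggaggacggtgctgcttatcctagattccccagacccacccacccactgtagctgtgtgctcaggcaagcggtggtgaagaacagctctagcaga
Slc7a11, chr3:50443564-50443863, - strand: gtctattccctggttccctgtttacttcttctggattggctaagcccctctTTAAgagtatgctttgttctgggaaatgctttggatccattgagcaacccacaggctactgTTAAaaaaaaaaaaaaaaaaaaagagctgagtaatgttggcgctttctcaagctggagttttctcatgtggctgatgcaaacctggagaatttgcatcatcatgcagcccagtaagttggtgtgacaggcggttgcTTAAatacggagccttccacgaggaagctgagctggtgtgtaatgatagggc
Sall1, chr8:89044113-89044412, - strand: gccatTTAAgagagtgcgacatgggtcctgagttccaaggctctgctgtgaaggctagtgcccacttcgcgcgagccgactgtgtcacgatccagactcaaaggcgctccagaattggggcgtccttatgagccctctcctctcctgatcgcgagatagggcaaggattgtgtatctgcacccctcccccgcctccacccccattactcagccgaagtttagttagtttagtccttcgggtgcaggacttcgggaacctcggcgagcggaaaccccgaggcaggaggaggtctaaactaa

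The windows at Kcnmb2, which encodes a subunit of calcium-activated potassium channels, and at Kcnc2, a voltage-gated potassium channel of fast-spiking interneurons, received more insertions in Syn1Cre animals. The 3 TTAA sites at Kcnmb2 held 28 insertions from all 6 Syn1Cre animals, 5.14 per 1000000 insertions, and 0 of the 1726038 insertions of the Syn1CreNeg animals, which allows up to 1.74 per 1000000. The 2 sites at Kcnc2 held 32 insertions from 6 Syn1Cre animals and 4 from 3 Syn1CreNeg animals. At Slc7a11, the cystine and glutamate exchanger, and at Sall1, a zinc-finger transcription factor, both groups had insertions. The 3 sites at Slc7a11 held 122 insertions in Syn1Cre and 109 in Syn1CreNeg animals, and the single site at Sall1 held 24 and 17. A table lists a position and strand at most 10 times. The most used site at Slc7a11 had 9 to 11 insertions in Syn1Cre and 7 to 13 in Syn1CreNeg animals over both strands. No difference in rate is therefore read from the window at Slc7a11. The site at Sall1 had at most 7 insertions in an animal. Its pooled rate was 4.41 per 1000000 insertions in Syn1Cre and 9.85 in Syn1CreNeg animals, a difference that was not tested. The limit at Kcnmb2 and the pooled rates of these windows cover counting error only. TTAA occurs in 52.3% of the 31363 promoter windows of the same length, and in each of the 12 tables all insertions within those windows lay on a TTAA.

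The 6 Syn1Cre tables held 432664 to 1332946 insertions on chromosomes 1 to 19, and the 6 Syn1CreNeg tables held 95188 to 542788. The Syn1CreNeg animals of the earlier layout were the shallowest, with at most 116388 insertions each, so that loci with few insertions are least precise there. Reads overlapped widely between the groups, with 2329351 to 15255197 in Syn1Cre and 2340322 to 14191250 in Syn1CreNeg tables. A single read supported 10.0% to 44.5% of Syn1Cre insertions and 5.41% to 9.19% of Syn1CreNeg insertions. 27 library pools held Syn1Cre samples, 40 held Syn1CreNeg samples and 0 held both. Any effect of the library pool and one of Cre status therefore cannot be told apart. Of the 40, 12 also held GFAPCre samples and 20 also held samples labelled Frontflip, from other groups of the series.

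1 animal stood apart. The loci of 30 astrocyte genes took 0.544% of the insertions of Syn1Cre animal 5, against 0.194% to 0.273% in the other 5 Syn1Cre animals and 0.576% to 0.786% in the 6 Syn1CreNeg animals. Its share in the loci of 22 interneuron subtype and surface genes was 0.190%, within the 0.182% to 0.226% of the other Syn1Cre animals and above the highest Syn1CreNeg animal at 0.109%. After thinning to equal depth, 12% of its positions recurred on average in a Syn1CreNeg animal, against 8.34% to 8.61% for the other Syn1Cre animals and 11.9% to 13.4% among Syn1CreNeg animals. Animal 5 was also the shallowest Syn1Cre animal, with 432664 insertions against 737190 to 1332946 in the other 5. Syn1CreNeg animals 4 to 6 had 407574 to 542788. Whether its depth bears on these shares was not tested. The tables of Syn1Cre animals 4, 5 and 6 hold none of the primer barcodes that their labels give, while the other 9 tables hold theirs. Results that rest on animal 5 are therefore given with and without it.

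**Figure D1:**
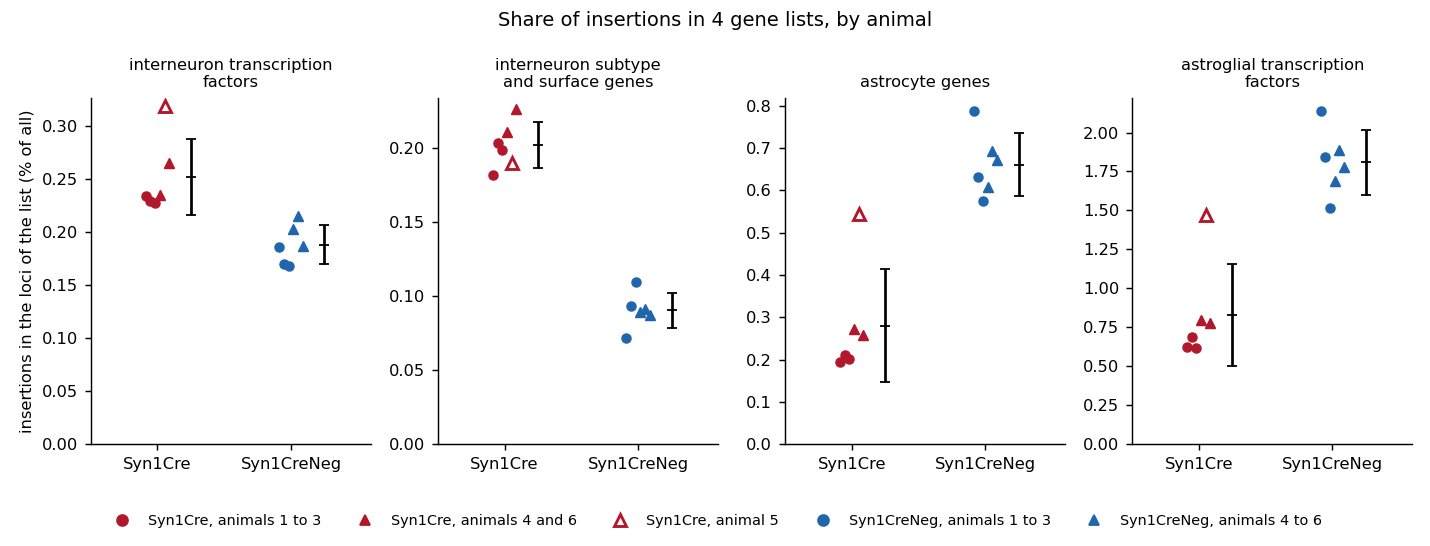
Share of each animal's insertions (vertical axes, % of insertions on chromosomes 1 to 19) in the loci of 4 gene lists, by group. Points are animals, with circles for the earlier and triangles for the later layout; crosses with bars are means and SD (n = 6). In both astroglial lists the 6 Syn1Cre animals lie below all Syn1CreNeg animals, with animal 5, drawn open, nearest to them, and in both interneuron lists they lie above all Syn1CreNeg animals.

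Of the 4 genes used as markers, both interneuron loci held a larger share of insertions in Syn1Cre animals and both astrocyte loci a smaller one. Insertions were counted per locus, a gene body with 10 kb on each side, and are given as normalised counts, that is insertions per 1000000 after TMM scaling. Gene coordinates are those of the gene body in GRCm38.p6. Gad1 (chr2:70561303-70602014), the enzyme that makes GABA, had 31.3 to 54.9 in Syn1Cre animals (median 41.9) and 0 to 15.5 in Syn1CreNeg animals (median 9.76). Erbb4 (chr1:68031884-69108576), the neuregulin receptor of interneurons, had 439 to 714 (median 566) against 107 to 178 (median 159). At both, every Syn1Cre animal lay above every Syn1CreNeg animal. The log2 fold change of Syn1Cre over Syn1CreNeg was 1.84 (adjusted p = 6.97e-06, SE 0.29) at Gad1 and 1.99 (adjusted p = 1.44e-13, SE 0.13) at Erbb4, by edgeR's quasi-likelihood test with Benjamini-Hochberg adjustment over all loci tested, which holds for every adjusted p of a locus or window given here.

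The astrocyte markers were lower in Syn1Cre animals. Kcnj10 (chr1:172341210-172374085), the inwardly rectifying potassium channel of astrocytes, had 43.4 to 169 in Syn1Cre (median 60.3) and 217 to 381 in Syn1CreNeg animals (median 251). Atp13a4 (chr16:29389103-29544864), an ATPase of the cation-transporting family, had 31.8 to 133 (median 63.5) against 142 to 260.2 (median 212). The groups did not overlap at either locus, and the highest Syn1Cre value at both was that of animal 5. The log2 fold change was -1.81 (adjusted p = 9.45e-09, SE 0.19) at Kcnj10 and -1.64 (adjusted p = 1.51e-08, SE 0.17) at Atp13a4. Without animal 5 it was -2.04 (SE 0.13) and -1.79 (SE 0.14).

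**Figure D2:**
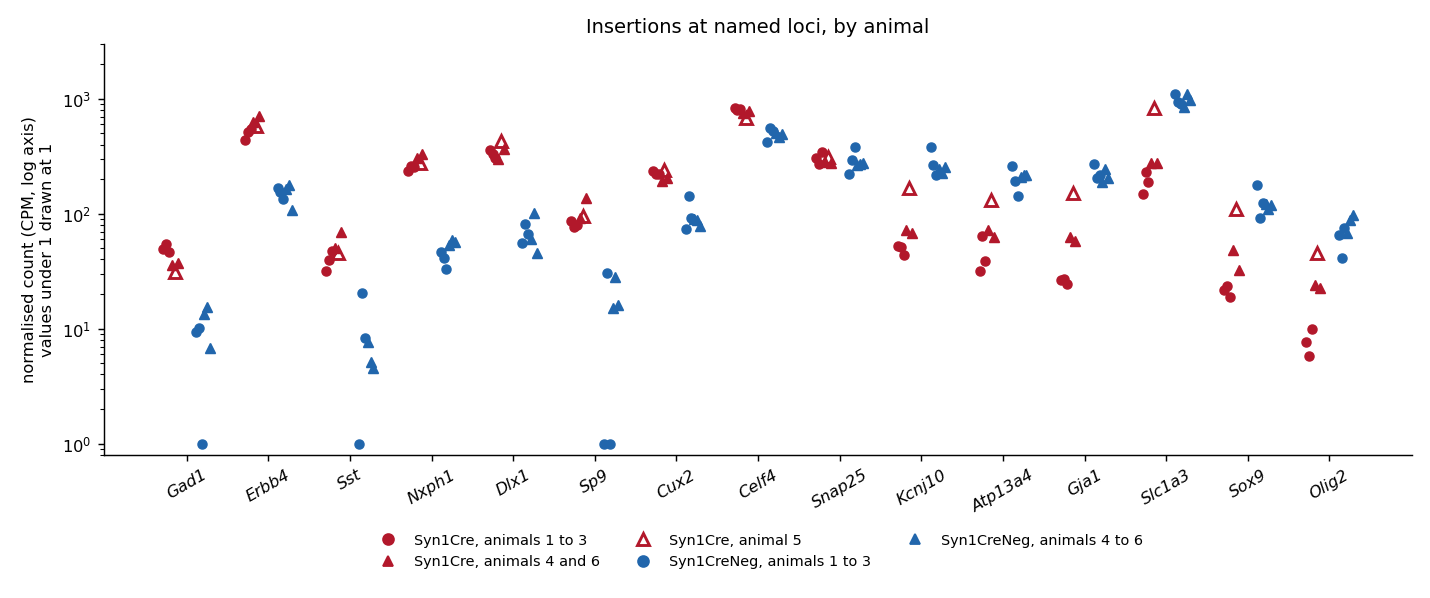
Normalised count (vertical axis, insertions per 1000000 after TMM scaling, log axis; values under 1 are drawn at 1) at 15 loci in each animal. Syn1Cre animals lie above all Syn1CreNeg animals from Gad1 to Celf4, the groups overlap at Snap25, and all Syn1Cre animals lie below the Syn1CreNeg animals from Kcnj10 to Slc1a3. At Sox9 and Olig2 the groups overlap only through animal 5 (open triangle).

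Across the genome, 9431 of 20661 protein-coding loci had enough insertions to be tested, and 2706 passed an adjusted p of 0.05, or 28.7%. Of these, 1094 were higher (11.6% of loci tested) and 1612 lower (17.1%) in Syn1Cre animals, whereas without the filter on low counts more loci were higher than lower, 1778 against 1336 of 19643. The log2 fold changes over the tested loci had a median of 0.0012. The 6 Syn1Cre animals all lay above the Syn1CreNeg animals at 353 loci (3.74%) and all below at 261 (2.77%). Without animal 5, 3336 of 10568 loci passed (31.6%), 1481 higher (14%) and 1855 lower (17.6%), and 2680 loci were called both with and without it. Counts for the gene lists below are read against these shares. Loci of neighbouring genes overlap and can share insertions, and members of a list that failed the filter on low counts are given as not tested. A locus can pass that filter through its higher group alone. The counts of list members called are therefore descriptions and do not extend to members not tested.

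Insertions at interneuron transcription factor loci rose with Syn1Cre. Of 17 such genes, 12 were tested, and 9 were higher, 1 lower and 2 not called, with a median log2 fold change of 1.95. The counts were the same without animal 5. At all 9 the groups did not overlap. Dlx1 (chr2:71528113-71533981), a homeobox factor needed for interneuron development, had 302 to 434 (median 343) in Syn1Cre and 45.7 to 101 (median 63.8) in Syn1CreNeg animals, a log2 fold change of 2.38 (adjusted p = 1.84e-13, SE 0.16). Its neighbour Dlx2 and the pair Dlx5 and Dlx6 rose by 1.62, 1.98 and 1.93 on the same scale. The loci within each pair overlap. Sp9 (chr2:73271926-73275771), a zinc-finger factor of immature interneurons, had 76 to 136 (median 88.9) against 0 to 30.7 (median 15.6), a log2 fold change of 2.59 (adjusted p = 2.89e-09, SE 0.25). Every Syn1Cre animal was above every Syn1CreNeg animal there, and animal 6 was the highest.

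Lhx6, a LIM homeobox factor of interneurons from the medial ganglionic eminence, had 21 to 34.5 (median 28.9) in Syn1Cre and 0 to 9.29 (median 2.86) in Syn1CreNeg animals, a log2 fold change of 2.77 (adjusted p = 3.27e-06, SE 0.41). The groups did not overlap at Lhx6, and Maf and Satb1 rose by 2.33 (SE 0.28) and 1.13 (SE 0.10). The member that fell was Sox6, which is also used by oligodendrocyte precursors, at -0.81 (adjusted p = 9.21e-06, SE 0.13). It was the locus of the list with the most insertions, 775 to 1387 in Syn1CreNeg and 432 to 1277 in Syn1Cre animals. The 2 members not called were Sp8 at 0.13 (adjusted p = 0.811) and Nr2f2 at 0.24 (adjusted p = 0.25), factors of interneurons from the caudal ganglionic eminence among other cells. Gsx2, Lhx8, Nkx2-1, Npas1 and Prox1 were not tested. With at most 9.29 in Syn1CreNeg animals, Lhx6 could pass the filter on low counts through Syn1Cre animals alone.

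Genes of interneuron subtypes, peptides and surface proteins rose or were not called. Of 22, 14 were tested, 10 were higher and 0 lower, with a median log2 fold change of 0.83 (12 of 16 and a median of 1.07 without animal 5). Nxph1 (chr6:8948614-9249619), a secreted ligand of neurexins, had 236 to 334 (median 267) in Syn1Cre and 33.3 to 59.3 (median 49.9) in Syn1CreNeg animals. Sst, the peptide somatostatin, had 31.8 to 69.9 (median 46.8) against 0 to 20.4 (median 6.39). The groups were separate at both, with log2 fold changes of 2.49 (adjusted p = 5e-15, SE 0.14) and 3.00 (adjusted p = 2.75e-08, SE 0.33). Nxph2, the related neurexophilin, had the highest fold change of all loci tested, 3.14 (adjusted p = 6.53e-09, SE 0.32), with 36.9 to 63.5 in Syn1Cre and 0 to 11.4 in Syn1CreNeg animals.

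The remaining calls of that list were Calb1, Cort, Elfn1, Reln, Kcnc1 and Adarb2, with log2 fold changes from 1.92 at Calb1, the calcium buffer calbindin, to 0.57 at Adarb2, an RNA-binding protein of caudal interneurons. The calls of Adarb2, Kcnc1 and Cort were lost without Syn1CreNeg animal 4, those of Adarb2 and Kcnc1 also without Syn1CreNeg animal 6, that of Adarb2 also without Syn1Cre animal 4 or 6, and that of Kcnc1 also without Syn1CreNeg animal 1 or 3. Lamp5, Cnr1, Cck and Kit, which mark caudal and cholecystokinin cells, were tested and not called, at -0.12, 0.27, 0.37 and 0.55. Pvalb, Vip, Npy and Htr3a were among the 8 members not tested. Of the 5 genes for GABA synthesis and transport 4 were tested. The 2 enzymes rose, Gad1 as above and Gad2 by 2.11 (adjusted p = 2.3e-05, SE 0.36). Values of the other tested members are not reported here. The summed share of the 5 loci overlapped between the groups. It was 0.0182% to 0.0249% in Syn1Cre and 0.0103% to 0.0263% in Syn1CreNeg animals, with a higher mean in Syn1Cre.

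Of the 12 highest fold changes among loci with at least the median normalised count, several were at genes of ion channels and receptors. Kcnc2 (chr10:112269898-112466304) had 265 to 383 (median 331) in Syn1Cre and 37.2 to 114 (median 69.6) in Syn1CreNeg animals, a 3.97-fold difference. Kcnip1, a calcium sensor that binds A-type potassium channels, had 111 to 153 against 16.7 to 51.1, 3.84-fold. Kcnmb2 had 171 to 199.96 against 9.29 to 91.7, 3.04-fold, and Grik1, a kainate receptor subunit, 222 to 370.5 against 46.5 to 145, 3.01-fold. No Syn1Cre animal overlapped the Syn1CreNeg range at any of these 4. The adjusted p was 5.05e-13 at Kcnc2, 7.1e-10 at Kcnip1, 8.16e-09 at Kcnmb2 and 3.19e-09 at Grik1. Tmem132c, St8sia4, a polysialic acid synthase, and Rpp25, an RNase P subunit, complete the 12 with log2 fold changes of 1.66, 1.53 and 1.51.

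Astrocyte loci took a smaller share of insertions with Syn1Cre. Of 30 astrocyte genes, 27 were tested, and 24 were lower and 0 higher, with a median log2 fold change of -1.23. Without animal 5, 26 of 27 were lower and the median was -1.43. Gja1 (chr10:56377300-56390419), the connexin of astrocyte gap junctions, had 24.5 to 152 (median 42.4) in Syn1Cre and 188 to 269.5 (median 211) in Syn1CreNeg animals. Slc1a3 (chr15:8634124-8710807), the glial glutamate transporter GLAST, had 149 to 824 (median 255) against 849 to 1109 (median 952). The groups were separate at both, and animal 5 was the highest Syn1Cre animal at both, at 152 and 824, above 62.4 and 278 in the next. The log2 fold change was -1.93 (adjusted p = 3.17e-08, SE 0.22) at Gja1 and -1.68 (adjusted p = 9.32e-08, SE 0.20) at Slc1a3, and -2.17 and -2.04 without animal 5.

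Other loci of the list with large differences were Pla2g7, an acetylhydrolase of platelet-activating factor, at -1.95 (SE 0.20), Slco1c1, a thyroid hormone transporter, at -1.82 (SE 0.22), Dio2, the deiodinase that activates thyroid hormone, at -1.71 (SE 0.19), and Cst3, the protease inhibitor cystatin C, at -1.79 (SE 0.23). Aqp4, the water channel of astrocyte endfeet, and Slc1a2, the other main glial glutamate transporter, fell by less, at -1.02 and -1.14. Gfap had 11.5 to 30.4 in Syn1Cre and 30.5 to 65.1 in Syn1CreNeg animals, without overlap, at -0.84 (adjusted p = 0.015, SE 0.26), a call that was lost without Syn1Cre animal 4 or without Syn1CreNeg animal 1. Apoe, S100b and Aldh1l1 were the 3 members not called, at -0.83, -0.59 and -0.57. Mfge8, Mlc1 and Slc7a10 were not tested. Each of the 30 genes had insertions in both groups.

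Transcription factors of astroglia fell as well. Of 16, 15 were tested, 12 were lower and 0 higher, with a median log2 fold change of -1.31 (-1.43 and 12 of 15 without animal 5). Sox9, a factor of glial fate, had 18.9 to 111 (median 27.8) in Syn1Cre and 92 to 177 (median 120.3) in Syn1CreNeg animals. Zbtb20, a zinc-finger repressor of astrocyte development, took 1210.1 to 4363 (median 1621) against 4184 to 6654 (median 5597). Both pairs of groups overlapped only through Syn1Cre animal 5. The log2 fold change was -1.55 (adjusted p = 4.17e-06, SE 0.23) at Sox9 and -1.53 (adjusted p = 3.17e-08, SE 0.17) at Zbtb20. Among the NFI factors, Nfia and Nfib fell, at -1.34 (SE 0.14) and -0.48 (SE 0.09), while Nfix was at -0.12 (adjusted p = 0.441). Lhx2 and Rfx4 were not called either, at 0.31 and -0.09. Lhx2 passed as higher when counts were scaled by total insertions.

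The 12 lowest fold changes among loci with at least the median normalised count include Sall1 and Sall3, Olig1 and Olig2, Dipk1c, Cstdc2 and Slc7a11. Sall1 (chr8:89027242-89044162) had 67.5 to 364 (median 112) in Syn1Cre and 383 to 585 (median 540.3) in Syn1CreNeg animals, 3.65-fold lower, and the related Sall3 had 47.9 to 258 against 367 to 487, 3.82-fold lower. Slc7a11 had 161 to 809 (median 234) against 790.0 to 1375 (median 978), 3.44-fold lower. The Slc7a11 locus includes the promoter sites above, where a position and strand is listed at most 10 times. The groups were separate at both Sall loci, and at Slc7a11 only animal 5 entered the Syn1CreNeg range. The adjusted p was 1.99e-08 at Sall1, 7.61e-10 at Sall3 and 1.55e-07 at Slc7a11.

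**Figure D3:**
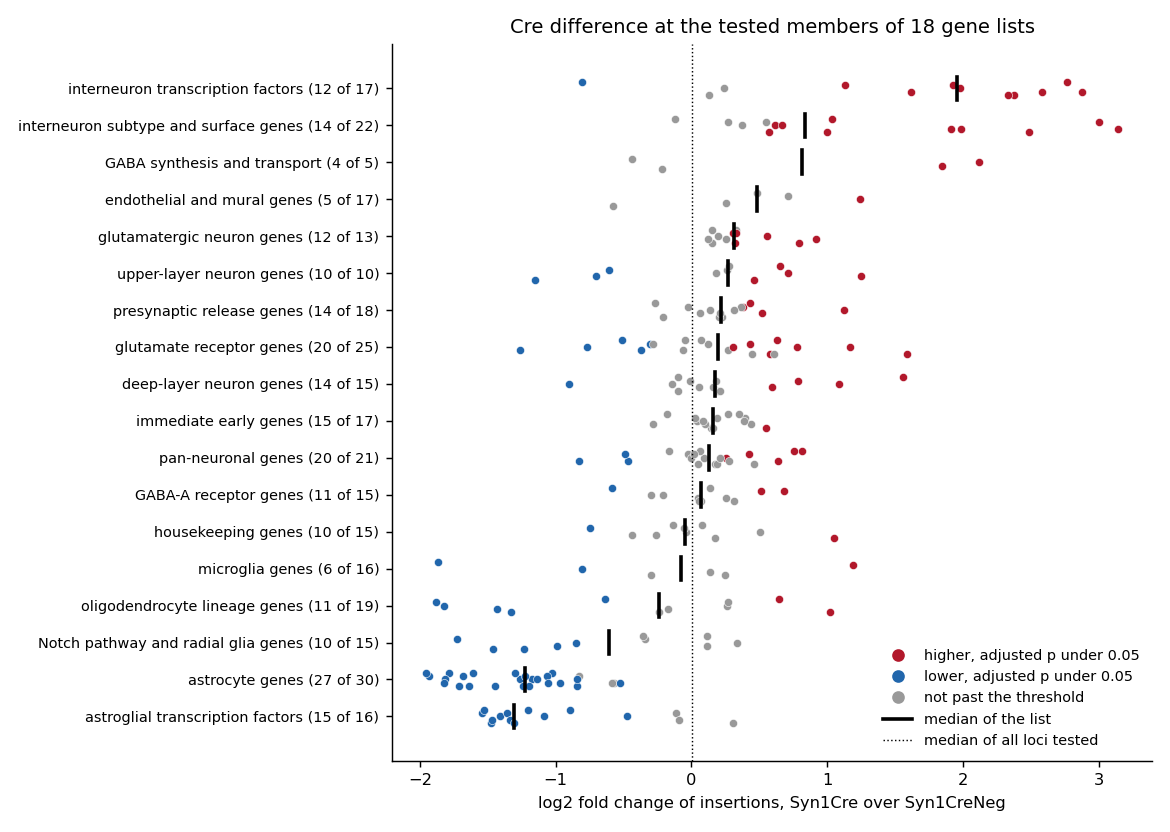
Log2 fold change of insertions, Syn1Cre over Syn1CreNeg (horizontal axis), for each tested member (point) of 18 gene lists, with the number tested of the number of loci in brackets. Red and blue points passed as higher and lower, grey points did not pass; bars are list medians, which run from -1.31 for astroglial to 1.95 for interneuron transcription factors.

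Loci of the glutamatergic neuron list were higher or not called, while the layer markers given below moved both ways. Of 13 genes of glutamatergic neurons 12 were tested, 6 were higher and 0 lower, with a median log2 fold change of 0.32. Slc17a6, a vesicular glutamate transporter, had 91.5 to 165 (median 127) in Syn1Cre and 20.4 to 100.01 (median 63.5) in Syn1CreNeg animals. The groups overlapped there through animal 5, and the log2 fold change was 0.91 (adjusted p = 7.26e-05, SE 0.17). Emx1 and Neurod6, cortical factors of the excitatory lineage, passed at 0.55 and 0.33. Both calls were lost without Syn1CreNeg animal 5, that of Emx1 also without Syn1CreNeg animal 1, 2 or 3 and that of Neurod6 also without Syn1CreNeg animal 6.

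Markers of cortical layers moved both ways. Among 10 upper-layer genes, all tested, 4 were higher and 3 lower, with a median of 0.27, while the summed share of the list was 0.249% to 0.338% in Syn1Cre and 0.289% to 0.377% in Syn1CreNeg animals, with a lower mean in Syn1Cre. Cux2, a homeobox factor of upper layers, had 193 to 241 in Syn1Cre and 74.3 to 143 in Syn1CreNeg animals, without overlap, at 1.25 (adjusted p = 1.64e-08, SE 0.13). Pou3f2 and Pou3f3, POU factors that neural progenitors also use, fell at -1.15 (adjusted p = 3.55e-06, SE 0.17) and -0.71 (adjusted p = 3.57e-05, SE 0.12), and Rorb fell at -0.61 (adjusted p = 7.84e-05, SE 0.11). At these 3 the groups overlapped only through animal 5. Among 15 deep-layer genes 14 were tested, 4 were higher and 1 lower, with a median of 0.17. Nr4a2, a nuclear receptor of subplate and claustrum, rose by 1.09 (adjusted p = 6.27e-07, SE 0.15), and Rprm and Tbr1 rose by 1.56 and 0.60, while Etv1 fell at -0.90 (adjusted p = 2.98e-07, SE 0.12). The fourth deep-layer gene that passed, Ntsr1 at 0.78, lost its call when Syn1Cre animal 4 or Syn1CreNeg animal 2, 5 or 6 was left out.

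Genes that all neurons use were mostly not called. Of 21 pan-neuronal genes 20 were tested, 5 were higher and 3 lower, with a median of 0.13. The summed share of insertions in the list went the other way, 0.833% to 0.942% in Syn1Cre and 0.968% to 1.07% in Syn1CreNeg animals, without overlap. Snap25, a core protein of vesicle fusion, had 274 to 342 (median 295) in Syn1Cre and 223 to 383 (median 274) in Syn1CreNeg animals, an overlap over most of the range, with a log2 fold change of 0.06 (adjusted p = 0.706, SE 0.11). Celf4, a neuronal RNA-binding protein, rose by 0.64 (adjusted p = 3.35e-06, SE 0.10). Among the higher ones, the calls of Rbfox1, Nefl and Tubb3 were each lost without Syn1Cre animal 6 and without Syn1CreNeg animal 1, 4 or 5, those of Rbfox1 and Tubb3 also without Syn1Cre animal 3 or Syn1CreNeg animal 2, that of Rbfox1 also without Syn1Cre animal 4 or Syn1CreNeg animal 6, and that of Tubb3 also without Syn1Cre animal 5 or Syn1CreNeg animal 3. Of 18 presynaptic release genes 14 were tested, 4 were higher and 0 lower, with a median of 0.22, from 0.38 at Pclo to 1.12 at Stx1a. The calls of these 2 were lost without Syn1CreNeg animal 6, that of Pclo also without Syn1Cre animal 6 or Syn1CreNeg animal 2, and that of Stx1a also without Syn1Cre animal 4.

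Receptor genes divided by member. Of 25 glutamate receptor genes 20 were tested, 7 were higher and 5 lower (8 and 4 when scaled by total insertions), with a median of 0.20. The summed share of the list was lower in Syn1Cre, 0.771% to 0.956% against 0.958% to 1.02%, without overlap. The kainate subunits Grik1, Grik3 and Grik4 and the AMPA subunits Gria1 and Gria4 rose, by 1.17 at Grik3 and 0.78 at Gria4, while the AMPA subunit Gria2 fell at -0.37. Grm3, a metabotropic receptor with high expression in astrocytes, had 548 to 1855 (median 672) in Syn1Cre and 1383 to 2426 (median 1995) in Syn1CreNeg animals. The groups overlapped there only through animal 5, and the log2 fold change was -1.26 (adjusted p = 2.57e-07, SE 0.16). Grm5, which young astrocytes also express, fell at -0.77 (adjusted p = 8.8e-08, SE 0.09). Of 15 GABA-A receptor genes 11 were tested, 2 were higher, Gabra5 at 0.51 among them, and Gabrb1 was lower at -0.58. The call of Gabra5 was lost without Syn1CreNeg animal 5 or 6.

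Among Notch pathway and radial glia genes 10 of 15 were tested, 5 were lower and 0 higher, with a median of -0.61. These 5 were Nrarp at -1.73, Notch1 at -1.46, Fabp7, a fatty acid binding protein of radial glia, at -1.23, Notch2 at -0.99 and Hey1 at -0.85. Of 19 oligodendrocyte lineage genes 11 were tested, 5 were lower and 2 higher, with a median of -0.24. Olig2, which specifies the lineage and is also active in astrocyte precursors, had 5.85 to 45.8 (median 16.3) in Syn1Cre and 40.9 to 98.3 (median 71.8) in Syn1CreNeg animals, with overlap through animal 5 alone and a log2 fold change of -1.88 (adjusted p = 6.81e-08, SE 0.22). Nkx2-2, Bcas1 and Sox8 fell with Olig1 and Olig2. Mbp, the myelin basic protein, was at 0.27 (adjusted p = 0.115), and the calls of Mobp and Mog as higher were each lost without Syn1Cre animal 6 or Syn1CreNeg animal 3 or 5, that of Mobp also without Syn1Cre animal 3 or Syn1CreNeg animal 4 or 6 and that of Mog also without Syn1CreNeg animal 2.

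Lists of other cell types were thinly covered, and Itgam, Cldn5, Gpr17 and Mag, markers of microglia, endothelium and the oligodendrocyte lineage, had 0 insertions in all Syn1CreNeg animals, which allows up to 1.74 per 1000000. Of 16 microglia genes 6 were tested, 1 was higher and 2 were lower. The lower ones were Sall1, which is not particular to microglia in developing brain, and P2ry12 at -0.81, whose call was lost without Syn1CreNeg animal 4, and the higher one was Ptprc at 1.19. Of 17 endothelial and mural genes 5 were tested and Flt1 was higher at 1.24. Of 17 immediate early genes 15 were tested and Egr4 was higher at 0.55. Of 15 housekeeping genes 10 were tested, 1 was lower and 1 higher, Rpl13a at 1.05, with a list median of -0.05. The call of Rpl13a was lost without Syn1CreNeg animal 4.

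The differences were also present in windows drawn without regard to genes. Of 49223 windows of 50 kb, 17053 were tested and 4871 were called (28.6%), 2088 higher (12.2%) and 2783 lower (16.3%). Without animal 5, 5921 of 19558 windows passed (30.3%). Higher windows made up 42.9% of calls, and 53.0% when counts were scaled by total insertions alone. The window with the highest fold change under the naming rule, chr2:45900001-45950000, holds no protein-coding gene and has Zeb2, a factor of migrating interneurons and of other cells, as its nearest. It had 42.2 to 67.1 in Syn1Cre and 5.16 to 13.3 in Syn1CreNeg animals, without overlap, a 5.65-fold difference (adjusted p = 1.45e-08). The next 5 lay over Dlx1 and Dlx2, Erbb4, Nxph1, Sp9 and Kcnc2. The 6 lowest lay over Pla2g7, Dipk1c, Atp13a4, Sall3, Prdx6, a peroxiredoxin, and Ston2, an endocytic adaptor. At chr12:91750001-91800000 over Ston2, Syn1Cre animals had 16.8 to 36 and Syn1CreNeg animals 75.1 to 136, a log2 fold change of -1.99 (adjusted p = 4.07e-09, SE 0.20), and animal 5 did not reach the Syn1CreNeg range.

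Long interneuron loci were also read window by window. Erbb4 spans 23 windows, of which 10 had enough insertions to be tested, and all 10 were higher in Syn1Cre, with log2 fold changes from 0.86 to 2.94. All 6 tested windows of Nxph1, all 5 of Kcnc2 and all 6 of Grik1 were higher too. At astroglial loci, both tested windows of Kcnj10 and of Atp13a4 and all 3 of Slc1a3 and of Slc7a11 were lower. All these loci were chosen with results of these data known. A window can also pass the filter on low counts through its higher group alone. The shared direction of the tested windows is therefore a description and no further evidence, and it does not extend to the untested windows. At Atp13a4 the difference was largest in the window over chr16:29500001-29550000, with a log2 fold change of -2.01 against -0.74 in the next.

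Around annotated gene starts, the difference at astrocyte genes was largest in the first kilobases. From 1 to 2 kb after the starts of 27 astrocyte genes, the mean was 403 ± 60.01 insertions per kb for each 1000000 insertions in Syn1CreNeg animals (SD, n = 6) and 107 ± 14.01 in Syn1Cre animals without animal 5 (n = 5), and animal 5 had 335. At 19 interneuron subtype and surface genes, the 1 kb before the start had 95.9 ± 7.22 in Syn1Cre without animal 5 (n = 5) and 70.3 ± 22.6 in Syn1CreNeg animals (n = 6). From 3 to 4 kb after the start the values were 69.8 ± 5.96 and 21.5 ± 6.57. These profiles are sums over the genes of each list and were not tested.

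**Figure D4:**
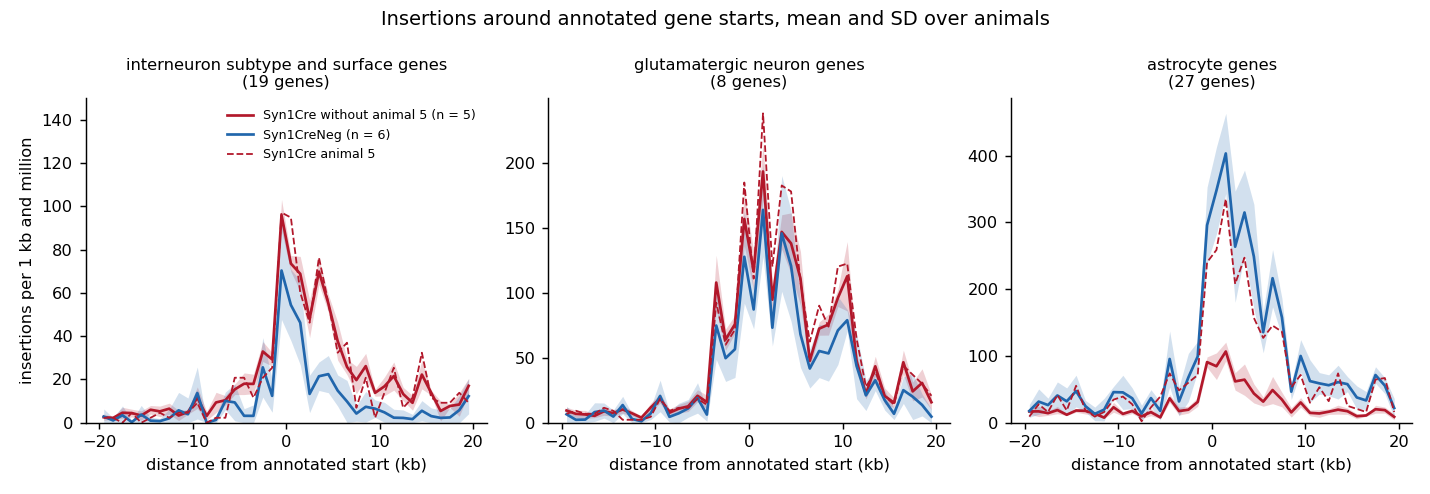
Insertions per kb for each 1000000 insertions of the animal (vertical axes), against distance from the annotated start in kb (horizontal axes, positive into the gene), summed over the genes of 3 lists. Lines and bands are means and SD for Syn1CreNeg (blue, n = 6) and for Syn1Cre without animal 5 (red, n = 5); the dashed line is animal 5, which lies near the blue line at astrocyte genes, with 335 from 1 to 2 kb against 403.

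The placement of insertions as a whole differed too. Gene bodies, which cover 39.97% of the span of the chromosomes, held 57.1% to 60.8% of insertions in Syn1Cre (median 58.0%) and 62.3% to 62.9% in Syn1CreNeg animals (median 62.7%). The groups did not overlap, and animal 5 was the highest of Syn1Cre. The difference was -4.34 percentage points (exact two-sided permutation test within layout, p = 0.005, the smallest the design gives; adjusted p = 0.015 over 4 measures). Within the earlier and the later layout it was -5.40 and -3.28 points. Regions within 1 kb of a gene end held 7.65% ± 0.44 in Syn1Cre and 8.48% ± 0.33 in Syn1CreNeg animals (SD, n = 6 each), with an exact permutation p of 0.01 and an adjusted p of 0.015, and the difference was -0.96 and -0.70 points within the layouts.

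Positions listed at least 2 times in a table, which the labels' protocol counts as separate insertions in different pieces of a cortex, held 33.9% to 42.6% of insertions in Syn1Cre and 17.5% to 36.1% in Syn1CreNeg animals. The difference of 11.5 points (exact permutation p = 0.015, adjusted p = 0.015), 18.8 and 4.25 within the layouts, moved with depth: with every animal thinned to 95188 insertions it was -6.52 points, 9.20% ± 2.42 against 15.7% ± 2.55 (SD, n = 6 each; adjusted exact permutation p = 0.0133). The number of insertions itself differed by 0.58 on the log10 scale (exact permutation p = 0.015, adjusted p = 0.015). Within a layout, 3 against 3 animals cannot give a p below 0.1. By that exact test the later layout gave 0.3 for the insertion number and for recurrence, 0.2 for gene ends and 0.1 for gene bodies, and the earlier layout 0.1 for each of the 4.

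Both layouts gave the same direction at each of the 4 marker loci. In animals 1 to 3 and 4 to 6 the log2 fold change was 2.99 and 1.66 at Gad1, 1.74 and 2.18 at Erbb4, -2.54 and -1.35 at Kcnj10, and -2.11 and -1.34 at Atp13a4. Among astrocyte genes 19 of 23 tested were lower in animals 1 to 3, where 8.01% of loci were, and 20 of 25 in animals 4 to 6, where 11.5% were, with medians of -2.11 and -1.09. Among interneuron subtype and surface genes 6 of 13 and 8 of 11 were higher, where 3.8% and 10% of loci were. A test of the Cre by layout interaction called 0 of 10042 loci (0%) with edgeR, and 676 had an unadjusted p under 0.05. The lowest adjusted p was 0.166. Without Syn1Cre animal 4, 5 or 6 the same test called 24, 9 and 35 loci.

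At part of the interneuron loci, the Cre difference was larger in Syn1 than in GFAP animals. The series holds 6 GFAPCre cortices, by their name with Cre under the promoter of the astrocyte gene Gfap, and 6 GFAPCreNeg cortices without Cre, all injected with an adeno-associated virus on postnatal day 0 or 1. They share no animal with the Syn1 groups, but 12 library pools held both GFAPCre and Syn1CreNeg samples, and the part of this in the test was not tested. In the fit that included these animals, layout was a block for Syn1 animals only, and GFAP animals had no block. With GFAPCre, 7.21% of 11019 loci were called, 1.75% higher and 5.46% lower. The Cre difference in Syn1 animals minus that in GFAP animals passed at 79 loci (0.717%), 50 positive (0.454%) and 29 negative (0.263%). The positive ones included 7 of 12 interneuron transcription factors and 5 of 15 interneuron subtype and surface genes. Sp9 had the largest difference under the naming rule, 3.12 (SE 0.41, adjusted p = 1.33e-06), followed by Dlx5, Dlx1, Erbb4 and Nxph1. At Dlx1 the Cre difference in GFAP animals was -0.21 (adjusted p = 0.492), and at Erbb4 it was -0.20 (adjusted p = 0.363).

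With GFAPCre too, astrocyte loci were lower or not called. There 15 of 28 astrocyte genes tested were lower and 0 higher, with a median log2 fold change of -0.62. The difference between the lines passed at 1 astrocyte gene, Kcnj10, at -1.19 (SE 0.30, adjusted p = 0.0416). Gja1 fell in both, at -1.93 with Syn1Cre and -1.22 (adjusted p = 0.000268) with GFAPCre, and the difference was -0.70 (SE 0.32, adjusted p = 0.359). Gfap was at 0.63 (adjusted p = 0.163) with GFAPCre. Without Syn1Cre animal 5 the difference between the lines passed at 321 of 11805 loci (2.72%), 111 positive (0.94%) and 210 negative (1.78%). The 5 lowest loci under the naming rule were Rnase13, Vit, Kctd14, Omd and Lzic.

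**Figure D5:**
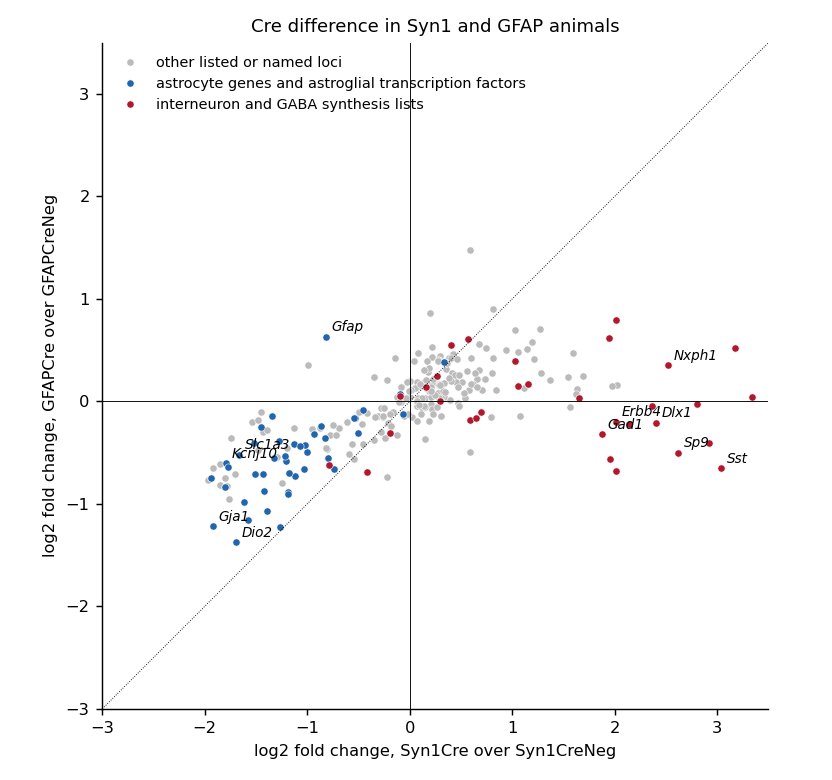
Log2 fold change of GFAPCre over GFAPCreNeg (vertical axis) against that of Syn1Cre over Syn1CreNeg (horizontal axis) for listed and named loci, n = 6 animals per group. Interneuron and GABA synthesis loci (red) spread to the right near 0 on the vertical axis, as Dlx1 does, astroglial loci (blue) lie mostly lower on both, and the dotted line marks equal values.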

How the data were processed

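Calling card tables of 12 animals were analysed, with 12 GFAPCre and GFAPCreNeg tables for 1 comparison. The tables hold 1 line per insertion with chromosome, position, strand, primer barcode and read count; the deposited read counts are whole numbers and were used as raw counts. Per the labels' protocols, RNA was isolated from 10 pieces per cortex, whose indexed libraries were pooled into the table of the animal. mm10, Novoalign and Bowtie2 are named in the submitters' processing notes, without roles. Positions fit GRCm38 and are given 1-based.

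Lines were counted as insertions per 50 kb window and per locus of 20661 RefSeq protein-coding genes (GRCm38.p6, body with 10 kb flanks), chromosomes 1 to 19, so that X-linked genes such as Syn1 were not analysed here. Exons and introns were not annotated. edgeR 4.0.16 in R 4.3.3 fitted layout and Cre status with TMM factors, the filterByExpr filter (minimum count 10), glmQLFTest and Benjamini-Hochberg adjustment, threshold 0.05; SE is the log2 fold change divided by the root of F. Per-animal measures used exact permutations within layout (400 arrangements). The barcode column holds primer barcodes and not cortex pieces, so recurrence was counted as 2 or more lines at a position and strand, with at most 10 lines at any position, which caps counts at the most used sites. The models were tested on simulated data.

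The tables, gene lists and tests were chosen with earlier results of these data known. Named were the 4 markers; the 12 highest and 12 lowest loci and 6 and 6 windows by fold change that passed, kept their direction in both layouts and had at least the median normalised count, without overlapping loci or windows within 200 kb; up to 4 members with the largest fold change of each list; and 5 and 5 loci for Syn1 against GFAP animals. Further list members were named after their values were seen. Alternatives were another scaling, DESeq2 1.42.0, other filters, distinct positions, thinning, gene bodies alone, 100 kb windows, single layouts and leaving out each animal. Values of some list members are not reported here.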

Additional observations from a re-analysis of the deposited data

Results flagged for a closer look

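In 18 of 96 groups of 6 animals examined, over the per-animal measures, the named loci and the gene list shares, the highest or lowest animal lay apart from the other 5 by Dixon's criterion at the 95% level, which chance meets in about 1 of 20 groups. 14 of the 18 were Syn1Cre animal 5. At named loci it had normalised counts of 169 at Kcnj10, 89.1 at Dipk1c, 152 at Gja1, 364 at Sall1, 86.7 at Olig1, 330.1 at Slco1c1, 60.2 at Cstdc2 and 809 at Slc7a11, each above the other 5 Syn1Cre animals. Its shares of insertions were apart for upper-layer neuron genes (0.338%), astrocyte genes (0.544%), astroglial transcription factors (1.47%), Notch pathway and radial glia genes (0.0663%), oligodendrocyte lineage genes (0.0566%) and, on the low side, endothelial and mural genes (0.0169%). The remaining 4 were Syn1CreNeg animal 1 at Kcnj10 (381), Syn1Cre animal 6 at Sp9 (136), Syn1CreNeg animal 2 for deep-layer neuron genes (0.656%) and Syn1CreNeg animal 3 for endothelial and mural genes (0.0249%).

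The Cre difference in Syn1 animals minus that in GFAP animals passed the test of the difference itself at 10 loci named by rule, as log2 values from edgeR. It was positive at Sp9 (3.12, adjusted p = 1.33e-06), Dlx5 (2.69, adjusted p = 4.95e-08), Dlx1 (2.62, adjusted p = 5.61e-11), Erbb4 (2.21, adjusted p = 1.15e-11) and Nxph1 (2.17, adjusted p = 1.21e-09). It was negative at Rnase13 (-1.38, adjusted p = 0.0122), Vit (-1.35, adjusted p = 0.00103), Kctd14 (-1.34, adjusted p = 0.0323), Omd (-1.34, adjusted p = 0.0361) and Lzic (-1.30, adjusted p = 0.00155). Dropping Syn1Cre animal 5 changed none of these 10 calls.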

How the results depend on the processing

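Over the named loci, 1878 combinations of locus and alternative kept direction and side of the threshold. Of the others, 68 lost the call, 16 gained one and 1 changed sign. All 259 for the named windows were kept, but these windows were named for passing and for keeping direction in both layouts. Combinations in which a locus or window was not tested are left out, so that thinning counts 7 windows. The sign change was Neurod6 counted by distinct positions, at -0.27 (adjusted p = 0.137). Thinned to the shallowest animal, 653 of 1988 loci passed, 298 higher and 355 lower, and 825 of 1854 windows. Of the lists, 5 of 7 interneuron transcription factors and 3 of 5 interneuron subtype genes passed as higher. All 14 of 14 astrocyte genes passed as lower. Fewer features were tested there. With animals 1 to 3 only, 951 loci, 1511 windows and 6 interneuron subtype genes passed, and with animals 4 to 6 only 1798 loci and 3187 windows. Without the filter on low counts 3114 loci passed, 1778 higher and 1336 lower, so that more were higher than lower. Gene bodies without flanks gave 4 of 5 interneuron transcription factors as higher, where 875 of 5037 gene bodies were higher. Recurrence changed sign on thinning, to -6.52 points. Leaving out 1 animal gave 0 to 35 loci for the layout interaction, with 24, 9 and 35 without Syn1Cre animal 4, 5 and 6, and 321 loci without Syn1Cre animal 5 for Syn1 against GFAP. DESeq2 called 2177 loci and 3815 windows, and distinct positions 1949 and 3731. With the replicate number as a replicate block, 2407 loci and 4301 windows passed, and the 4 per-animal measures each had p = 0.03125 by exact sign flips. Same-numbered animals correlated at -0.016 to 0.130 in their deviations from the group means, which still hold the layout. In deviations from the means of group and layout they correlated at -0.031 to 0.076. Differently numbered animals there spanned -0.110 to 0.096, so same-numbered animals did not stand out. With 3 animals per group and layout, the check cannot decide whether the numbers pair the samples. The cause of the other changes was not tested. Depth limits loci with few insertions, above all in Syn1CreNeg animals 1 to 3.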
